A study of Homo sapiens with 4 samples.

Results

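FGF12, a cytoplasmic partner of voltage-gated sodium channels, and SCN3A, the gene of a sodium channel pore subunit, led the transcripts that were lower both in cells given guide RNAs (gRNAs) against COLCA2 and in cells given one against POU2F3, when genes are ranked by the smallest of their differences from the control. The genes described here are the 4 FGF12-type factors (FGF11, FGF12, FGF13 and FGF14) and 5 sodium channel alpha subunit genes (SCN1A, SCN2A, SCN3A, SCN8A and SCN9A). They were picked by symbol because FGF12 and SCN3A stood first and second in a ranking of shared deficits, so every ratio to the non-targeting library below is a description and carries no test. The ranking used the highest of the 3 log2 ratios, which is the smallest deficit, over genes whose count in the control reached 100. That value was -3.29 for FGF12 and -3.04 for SCN3A, and the next genes down were TMEM238L with -3.03 and PSD2 with -3.001. The other members were added as relatives of these genes and stood far lower: SCN9A was at rank 192 and FGF11 at rank 938. In all, 9 of 35979 gene symbols are members, each has 1 row in the tables, and 8 of them are among the 14940 genes whose mean over the 4 libraries reached a normalized count of 20. FGF14, with a mean of 6.62, is the member that did not, and SCN1A passed narrowly with a mean of 22.3.

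FGF12-type factors, also called FGF homologous factors, share the fold of fibroblast growth factors but lack a secretion signal and stay inside the cell. They bind the C-terminal tail of the sodium channel alpha subunit and shift the voltage at which the channel inactivates. The alpha subunit forms the pore that carries the rapid sodium current of nerve and muscle action potentials, and such currents are also known from small cell lung cancer lines.

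The study sequenced poly(A) RNA from NCI-H1048, an established line of human small cell lung cancer of the tuft cell-like subtype, a form marked by the transcription factor POU2F3 of chemosensory tuft cells. Of the 4 libraries, COLCA2 gRNA 1 and COLCA2 gRNA 2 received different guides and carry the genotype label COLCA2 knockout. Another library received POU2F3 gRNA and carries the label POU2F3 knockout, and the last received a non-targeting gRNA and is labelled WT, and it is called the control below. No treatment beyond the guides is given, all libraries come from 1 line, and whether the cells were pools or single clones is not given in the sources used here. COLCA2 encodes a coactivator of POU2F3.

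The libraries held between 21587741 and 29632382 reads assigned to genes. POU2F3 itself had 25.2% and 16.1% of its control level in the COLCA2 libraries and 9.92% in the POU2F3 library, and COLCA2 had 55.8%, 63.4% and 24.9%. How far the coding sequences were disrupted was not measured by these levels. Of 12 tuft markers, 9 passed the expression minimum in this line, while TRPM5, PTGS1 and HPGDS did not. Every comparison with the control rests on the same single non-targeting library, the POU2F3 library has no replicate, and the spread between the COLCA2 guides is the only error within a group. Intervals are 95% exact intervals and cover counting error only, because without molecular identifiers a read is not an independent molecule. In bulk RNA, fewer cells that express a gene and less RNA per cell cannot be told apart.

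The sequences come first because they bear on how far the counts of these related genes can be separated. A stretch of 90 coding bases was taken from FGF12 with the aligned stretch of each relative (GENCODE release 29, GRCh38, each inside 1 exon, written 5′ to 3′ on the coding strand). Capitals mark bases that differ from FGF12 (chr3:192170492-192170581, minus strand).
FGF12: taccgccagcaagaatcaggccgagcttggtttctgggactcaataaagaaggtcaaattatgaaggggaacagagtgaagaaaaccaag
FGF11: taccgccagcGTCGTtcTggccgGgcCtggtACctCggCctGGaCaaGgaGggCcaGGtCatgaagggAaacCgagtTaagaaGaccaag
FGF13: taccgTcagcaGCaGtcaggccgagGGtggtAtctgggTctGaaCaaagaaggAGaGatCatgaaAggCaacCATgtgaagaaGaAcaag
FGF14: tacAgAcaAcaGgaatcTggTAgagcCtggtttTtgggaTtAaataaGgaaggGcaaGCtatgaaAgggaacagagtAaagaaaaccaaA
FGF11 (chr17:7442669-7442758, plus strand) differs at 25 of the 90 bases, FGF13 (chrX:138635491-138635580, minus strand) at 21 and FGF14 (chr13:101726646-101726735, minus strand) at 18. The longest run identical to FGF12 is 11 bases, in FGF14. Over all annotated transcripts, FGF12 shared no stretch of 31 bases with the other members, and 0.0811% of its 31-base words occurred in any other gene.

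The sodium channel genes are far more alike. Of the 31-base words of SCN3A, 815 (8.15%) occurred in another member, against 4.35% for SCN9A, 3.36% for SCN2A, 3.07% for SCN1A and 0.113% for SCN8A. Counted against any other gene, the shares were 13.8% for SCN3A, 11.1% for SCN9A, 6.82% for SCN1A, 5.97% for SCN8A and 4.46% for SCN2A. SCN9A shares 1122 bp (8.17%) of its exonic bases with AC010127.1, and SCN8A shares 896 bp with AC068987.2, each on the opposite strand. Reads from such stretches can match several genes, so the counts of SCN1A, SCN2A, SCN3A, SCN8A and SCN9A are uncertain to that extent.

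The promoter of FGF12 is shown because members of the POU2 family bind the octamer ATGCAAAT. RefSeq (GRCh38.p14) gives FGF12 a start with the following 250 bases before it (chr3:192727542-192727791, minus strand), in which capitals mark the octamer.
FGF12 first start: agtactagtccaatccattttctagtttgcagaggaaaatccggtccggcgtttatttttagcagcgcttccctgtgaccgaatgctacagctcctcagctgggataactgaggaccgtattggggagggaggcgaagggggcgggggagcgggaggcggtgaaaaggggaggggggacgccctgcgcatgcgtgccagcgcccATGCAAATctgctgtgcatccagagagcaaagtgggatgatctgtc
The octamer lies at -46 to -39 from the start. A second FGF12 start (chr3:192409598-192409847, minus strand, for the 250 bases before it) has no copy and is 77.2% G and C.
FGF12 second start: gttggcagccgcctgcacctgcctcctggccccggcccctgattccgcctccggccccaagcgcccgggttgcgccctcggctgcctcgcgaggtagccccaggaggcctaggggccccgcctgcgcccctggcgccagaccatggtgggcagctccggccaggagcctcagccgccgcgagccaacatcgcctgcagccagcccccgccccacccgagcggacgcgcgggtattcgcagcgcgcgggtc
Windows of 300 bases, from 250 before to 50 after each start, were searched on both strands for ATGCAAAT and for the variant ATGCTAAT, each counted separately. In 17 windows of 8 members, 1 held ATGCAAAT and 0 held ATGCTAAT. Over all 35116 RefSeq windows of that length, 1.77% held ATGCAAAT and 0.649% held ATGCTAAT. A match of letters is not a measured binding site, and the gene-level counts do not separate the starts of FGF12. SCN3A has no entry in the promoter table.

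FGF12 (ENSG00000114279, chr3:192139395-192767764, minus strand) was clearly detected in the control and low in every targeted library. Its normalized counts were 201 in the control, 19.7 and 2.35 under COLCA2 gRNA 1 and gRNA 2, and 2.52 under POU2F3 gRNA, from 211, 19, 2 and 3 reads. FGF12 was highest in the non-targeting library, low with COLCA2 gRNA 1, and at or below 3 reads in the other pair. COLCA2 gRNA 1 left 9.78% of the non-targeting level (interval 5.77% to 15.7%), COLCA2 gRNA 2 left 1.17% (0.140% to 4.27%) and POU2F3 gRNA left 1.25% (0.256% to 3.70%). The mean log2 ratio of FGF12 with the COLCA2 guides was -4.60 ± 1.86 (SD, n = 2), on a scale of log2(normalized count + 1) that understates the change of low genes, and the ratio with POU2F3 gRNA was -5.85. COLCA2 gRNA 2 gave 0.119 times the FGF12 level of COLCA2 gRNA 1 (interval 0.0135 to 0.495), so the guides differed beyond counting error. The POU2F3 library lay below COLCA2 gRNA 1, at 0.128 times its level (0.0242 to 0.434), and could not be separated from COLCA2 gRNA 2 (1.07 times, 0.123 to 12.8). No exon of FGF12 overlaps an exon of another annotated gene.

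FGF11 was lower in all 3 targeted libraries, by less than the 2-fold threshold. Its normalized counts were 320 in the control, 243 and 198 under COLCA2 gRNA 1 and gRNA 2, and 216 under POU2F3 gRNA. The levels left were 75.8% (63.9% to 89.9%), 61.8% (51.0% to 74.6%) and 67.4% (57.1% to 79.6%), all with intervals below 100%. The mean log2 ratio with the COLCA2 guides was -0.55 ± 0.21 (SD, n = 2) and that with POU2F3 gRNA was -0.57. The tables list FGF11 under ENSG00000283903, whereas the annotation's FGF11 is ENSG00000161958 (chr17:7438273-7444937, plus strand), so the position rests on the symbol alone. FGF11 shares 75.0% of its exonic bases with an overlapping transcript, AC113189.4, and its count is uncertain for that reason.

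FGF13 (ENSG00000129682, chrX:138614731-139222777, minus strand), a factor known to bind both sodium channels and microtubules, was modestly lower with the COLCA2 guides. Normalized counts were 666 in the control, 473 and 552 under COLCA2 gRNA 1 and gRNA 2, and 652 under POU2F3 gRNA. COLCA2 gRNA 1 left 71.0% (63.0% to 80.0%) and COLCA2 gRNA 2 left 82.9% (73.6% to 93.3%), a mean log2 ratio of -0.38 ± 0.16 (SD, n = 2). With POU2F3 gRNA the level was 98.0% (88.3% to 109%), and its difference from the control was not detectable at this depth. Set directly against the guides, the POU2F3 library held 1.38 times (1.23 to 1.55) the FGF13 of COLCA2 gRNA 1 and 1.18 times (1.05 to 1.33) that of COLCA2 gRNA 2.

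FGF14 (ENSG00000102466, chr13:101710804-102402457, minus strand), the factor mutated in a spinocerebellar ataxia, was close to absent except in 1 library. It had 1 read in the control, 0 and 21 under COLCA2 gRNA 1 and gRNA 2, and 1 under POU2F3 gRNA. COLCA2 gRNA 2 stood 25.9-fold above the control, with a counting interval from 4.16 to 1070, and no fold is given for the other libraries, where both sides are at or below 3 reads. The guides therefore disagree on FGF14, and the reads of 1 library decide its value. ITGBL1, on the opposite strand, shares 4354 bp (31.6%) of the exonic bases of FGF14. Its own normalized counts were 5.73 in the control, 5.18 and 2.35 with the COLCA2 guides and 5.88 with POU2F3 gRNA, so ITGBL1 was not high where FGF14 was. Any use of strand in the counting is not given in the sources used here.

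**Figure D1:**
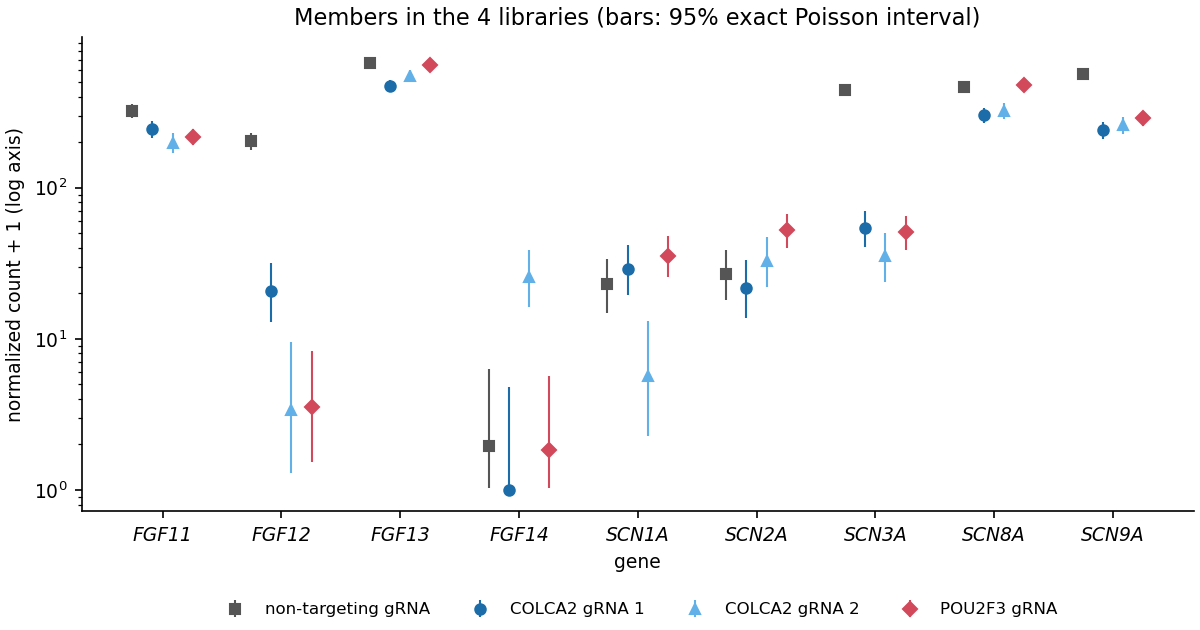
Normalized count plus 1 of each member (log axis) in the 4 libraries, with bars for the 95% exact Poisson interval. FGF12 and SCN3A have 201 and 441 in the non-targeting library and lie far below these levels in every targeted library. FGF14 is above 1 read only with COLCA2 gRNA 2, at a normalized count of 24.7.

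Among the alpha subunits, SCN3A (ENSG00000153253, chr2:165087522-165204067, minus strand) encodes a channel that is most abundant in the developing brain. Its normalized counts were 441 in the control, 52.9 and 34.1 under COLCA2 gRNA 1 and gRNA 2, and 49.5 under POU2F3 gRNA, from 462, 51, 29 and 59 reads. The 3 targeted libraries lay close together and far below the control. The levels left were 12.0% (8.79% to 16.0%), 7.73% (5.12% to 11.3%) and 11.2% (8.41% to 14.7%). The mean log2 ratio with the COLCA2 guides was -3.35 ± 0.44 (SD, n = 2) and that with POU2F3 gRNA was -3.13. The POU2F3 library held 0.937 times (0.633 to 1.39) the SCN3A level of COLCA2 gRNA 1 and 1.45 times (0.916 to 2.35) that of COLCA2 gRNA 2, and both intervals include 1. SCN3A shares 975 bp (9.91%) of its exonic bases with an antisense gene, AC019197.1.

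SCN9A (ENSG00000169432, chr2:166195185-166376001, minus strand), the gene of the channel of pain-sensing neurons, was the other member at or near the 2-fold threshold throughout. Normalized counts were 561 in the control, 238 and 258 under COLCA2 gRNA 1 and gRNA 2, and 286 under POU2F3 gRNA. The levels left were 42.5% (36.3% to 49.5%), 45.9% (39.1% to 53.7%) and 51.0% (44.5% to 58.3%), so SCN9A met the 2-fold threshold with both COLCA2 guides and just missed it with POU2F3 gRNA. The log2 ratios were -1.18 ± 0.078 (SD, n = 2) and -0.97. Scaling the libraries to equal totals brought the POU2F3 value just inside the threshold. The POU2F3 library held 1.20 times (1.01 to 1.43) the SCN9A of COLCA2 gRNA 1 and 1.11 times (0.935 to 1.32) that of COLCA2 gRNA 2.

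SCN8A (ENSG00000196876, chr12:51590266-51812864, plus strand), the main channel of the axon initial segment in adult neurons, separated the targets. Normalized counts were 464 in the non-targeting library and 478 with POU2F3 gRNA, against 299.6 with COLCA2 gRNA 1 and 321 with COLCA2 gRNA 2. The COLCA2 guides left 64.6% (55.6% to 74.8%) and 69.2% (59.4% to 80.4%), while POU2F3 gRNA had 103% (91.2% to 117%). The log2 ratios were -0.58 ± 0.070 (SD, n = 2) with COLCA2 gRNA and 0.04 with POU2F3 gRNA. In the direct comparison, which leaves out the shared control, the POU2F3 library held 1.597 times (1.38 to 1.85) the SCN8A level of COLCA2 gRNA 1 and 1.49 times (1.29 to 1.73) that of COLCA2 gRNA 2. This distance is larger than that between the guides, but it rests on 1 POU2F3 library and was not tested.

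SCN2A (ENSG00000136531, chr2:165194993-165392310, plus strand) and SCN1A (ENSG00000144285, chr2:165984641-166149214, minus strand) encode channels of excitatory and of inhibitory neurons and were scarce here. SCN2A had normalized counts of 25.8 in the control, 20.7 and 31.8 under COLCA2 gRNA 1 and gRNA 2, and 51.2 under POU2F3 gRNA. The POU2F3 library was the highest, at 199% of the control (124% to 325%, from 61 and 27 reads), and the log2 ratio of 0.96 missed the 2-fold threshold. The COLCA2 guides lay on either side of the control, at 80.4% (42.8% to 149%) and 123% (69.5% to 218%), a difference not detectable at this depth. SCN1A had normalized counts of 22.0 in the control, 28.0 and 4.70 under COLCA2 gRNA 1 and gRNA 2, and 34.4 under POU2F3 gRNA. The POU2F3 library had 157% of the control level of SCN1A (91.8% to 274%, from 41 and 23 reads), a difference not detectable at this depth. COLCA2 gRNA 2, with 4 reads, was the low library, at 0.168 times (0.0427 to 0.482) the level of COLCA2 gRNA 1. The mean log2 ratio of SCN1A with the COLCA2 guides, -0.84 ± 1.66 (SD, n = 2), is smaller than its spread, and without COLCA2 gRNA 2 it would be 0.34.

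**Figure D2:**
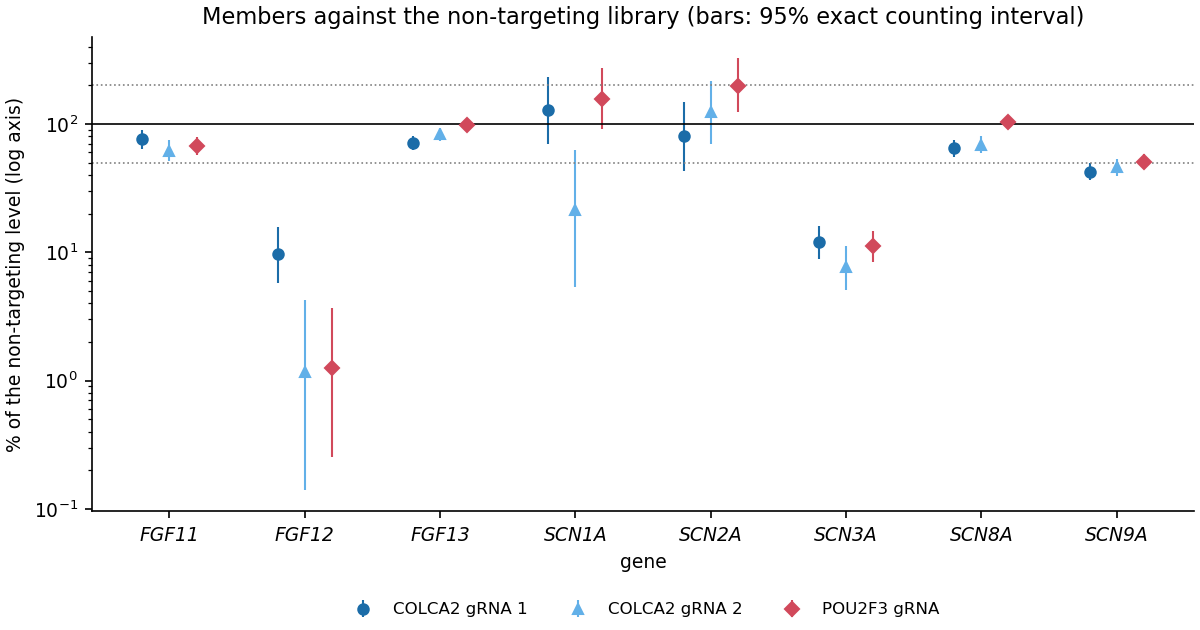
Level of the 8 members past the expression minimum as a percent of the non-targeting library (log axis), with 95% exact counting intervals, a solid line at equal levels and dotted lines at the 2-fold thresholds. FGF12 and SCN3A lie lowest with every guide, SCN9A lies near the lower dotted line (42.5% to 51.0%), and SCN8A is near the solid line with POU2F3 gRNA (103%).

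Counted against the 2-fold threshold, 2 of the 8 members (FGF12 and SCN3A) were lower with POU2F3 gRNA, where 3.05% of all genes were. With both COLCA2 guides 3 members (FGF12, SCN3A and SCN9A) were lower, where 2.02% of all genes were, and in all 3 libraries 2 members were lower, where 1.5% of all genes were. In the higher direction 0 members passed with POU2F3 gRNA, with both COLCA2 guides or in all 3 libraries, where 6.73%, 5.79% and 4.89% of all genes were. With COLCA2 gRNA 2 alone 4 members were lower, since SCN1A then passed, and 3.64% of all genes were. At a 1.5-fold threshold 3 members (FGF12, SCN3A and SCN9A) were lower with POU2F3 gRNA, where 7.69% of all genes were, and 2 (SCN1A and SCN2A) were higher, where 12.2% of all genes were. Because these ratios chose the members, nothing is read from these counts. The medians of the log2 ratios over all genes were -0.0052 and -0.0017 under the COLCA2 guides and -0.0037 under POU2F3 gRNA. Between the targets, 0 members were at least 2-fold lower with POU2F3 gRNA than with both COLCA2 guides (0.924% of all genes) and 0 were higher (0.442%). The guides themselves were at least 2-fold apart at 2 members, FGF12 and SCN1A, and at 2.22% of all genes.

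To compare levels between genes, normalized counts were divided by the length of the longest annotated transcript in kilobases. In the control the order of the 5 alpha subunits on this scale was SCN9A with 57.5 (52.9 to 62.3), SCN3A with 48.4 (44.0 to 53.0), SCN8A with 40.2 (36.7 to 43.9), SCN2A with 2.21 (1.46 to 3.21) and SCN1A with 1.70 (1.08 to 2.55). The intervals of SCN9A and SCN3A overlap narrowly, those of SCN2A and SCN1A overlap, and those of SCN3A and SCN8A do not. SCN3A thus made up 32.3% of the summed level of these subunits in the control, and 9.65%, 6.13% and 6.53% with COLCA2 gRNA 1, COLCA2 gRNA 2 and POU2F3 gRNA. It held rank 2 in the control and rank 3 in those libraries, where SCN8A came first. Division by the longest coding sequence, chosen after the data had been seen, gave 29.03% in the control and 8.23%, 5.23% and 5.48%, and placed SCN8A above SCN3A in the control. The median transcript length gave 15.1% in the control and 3.85%, 2.38% and 2.55%, so the share of SCN3A depends on the length used, and with each length it is lower in the targeted libraries.

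**Figure D3:**
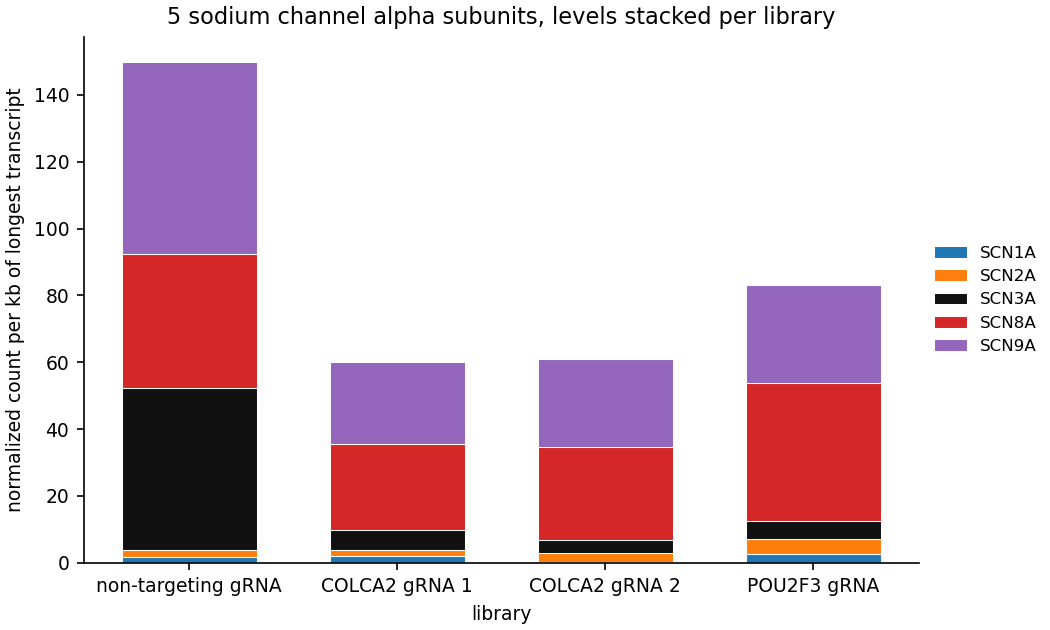
Normalized counts per kilobase of the longest transcript for the 5 sodium channel alpha subunits, stacked for each library. The SCN3A part is 48.4 in the non-targeting library and a thin band in the others, at 9.65% or less of the stack.

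The summed normalized count of the 5 alpha subunits was 1515 in the control, 640 and 649 under COLCA2 gRNA 1 and gRNA 2, and 899.8 under POU2F3 gRNA. These sums are 42.2%, 42.9% and 59.4% of the control, and without SCN3A they are 54.7%, 57.3% and 79.2%. For the 4 FGF12-type factors the sum was 1188 in the control and 735, 776 and 871 in the others, or 61.9%, 65.3% and 73.3%. Without FGF12 these become 72.5%, 78.4% and 88.1%. In both families the summed level was lower in each targeted library, with and without the member furthest below the control. With POU2F3 gRNA the remaining deficit lay mainly in SCN9A (561 in the control, 286 with POU2F3 gRNA) and in FGF11 (320 and 216). There SCN8A, SCN2A and SCN1A were above their control levels, and FGF13 was at 98.0%. Among the FGF12-type factors of the control, FGF11 was first per kilobase of the longest transcript (59.4% of the level) and FGF13 first per kilobase of coding sequence (53.7%), so their order depends on the length used. The FGF12 share of that family was 21.2% of the level in the control by the longest transcript, 17.0% by coding sequence and 27.9% by the median length. With the guides it was 3.40%, 0.46% and 0.45% by the longest transcript.

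Of 4 further alpha subunit genes, SCN10A was listed at 0 in every library, 3 passed the minimum, and none was 2-fold lower or higher with POU2F3 gRNA or with both COLCA2 guides. Their median log2 ratios were -0.21 and -0.08 under the COLCA2 guides and -0.14 under POU2F3 gRNA. SCN4A, the channel of skeletal muscle, had normalized counts of 179 in the control, 96.4 and 64.7 with the COLCA2 guides and 132 with POU2F3 gRNA. The beta subunits bind alpha subunits and modify their gating and placement. Of 3 such genes SCN2B missed the minimum, and 0 of the others were 2-fold apart in both COLCA2 libraries or with POU2F3 gRNA, with medians of 0.51, 0.37 and 0.75. SCN4B had 107, 135, 135 and 186 in the same order of libraries, and SCN3B had 20.1, 33.2, 27.0 and 33.6.

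Genes that place sodium channels in the membrane were mostly near their control levels. All 18 anchors and partners passed the minimum, and their median log2 ratios were 0.09, 0.07 and 0.07. With POU2F3 gRNA 0 were 2-fold lower and 2 higher, where 3.05% and 6.73% of all genes were. With both COLCA2 guides 0 were lower and 1 higher, where 2.02% and 5.79% of all genes were. Nothing is read from a count of 0 among 18 genes at such shares. ANK3, the ankyrin that gathers sodium channels at the axon initial segment, had log2 ratios of -0.25, 0.02 and 0.07. L1CAM, an adhesion molecule that binds ankyrins, was higher in all 3 libraries, from a normalized count of 76.4 to 645, 653 and 442, and SPTBN4, a spectrin partner of ANK3, was 2-fold higher with POU2F3 gRNA alone (122 to 259). The guides lay on either side of the control at SPTBN4, with 67.4 and 179.

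Other sodium transporters past the minimum gave 2-fold differences in the higher direction alone. Among all genes, 5.79% were higher with both COLCA2 guides, 6.73% with POU2F3 gRNA and 4.89% in all 3 libraries. In the sodium leak channel complex, 1 of 5 genes, NALF1 (FAM155A in the tables), was higher in all 3 libraries, with log2 ratios of 1.34, 1.24 and 1.23. Of 8 epithelial and acid-sensing channels 4 passed the minimum, and SCNN1A was higher with both COLCA2 guides (1.28 and 1.13), with 0.77 for POU2F3 gRNA. Of 6 sodium pump genes 5 passed, and ATP1B1, a beta subunit of the pump, was higher in all 3 (1.21, 1.21 and 1.14). TRPM4, a cation channel of taste-type cells, had -0.17, 0.13 and -0.55 and TRPM5 missed the minimum.

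The secreted FGFs, unlike the FGF12-type factors, signal through FGF receptors. Of 18, 5 passed the minimum, and FGF3, FGF4, FGF6 and FGF16 were listed at 0 in every library. FGF7, a growth factor for epithelium, had a normalized count of 1316 in the control, 664 and 694 with the COLCA2 guides and 375 with POU2F3 gRNA. FGF9 had 78.3, 48.7, 31.8 and 35.3 in the same order. Both were at least 2-fold lower with POU2F3 gRNA and not with both COLCA2 guides, while FGF5 was higher in all 3, with 37.2, 138, 232 and 102. Of 7 receptors and co-receptors 6 passed, and 1, FGFR2, was higher in all 3 libraries, from 1038 to 2238, 2454 and 2919. None of the 5 genes of the REST corepressor, which silences SCN2A and other neuronal genes outside neurons, was 2-fold apart, and REST itself had log2 ratios of -0.29, -0.00 and 0.33.

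Marker lists of cell types also differed between the control and the targeted libraries. The 12 tuft markers summed to a normalized count of 50413 in the control, 13175 to 17100 with the COLCA2 guides and 11947 with POU2F3 gRNA. Of the 9 past the minimum, 8 were 2-fold lower with both COLCA2 guides, where 2.02% of all genes were. With POU2F3 gRNA 8 were, against 3.05% of all genes. The targeted gene POU2F3 is itself 1 of these markers, is counted as lower in both comparisons, and supplies 14602 of the sum in the control. The 5 neuroendocrine markers summed to 4325, 1856 to 1885 and 2772, and 3 passed the minimum. Of these, INSM1 was lower in all 3 libraries, where 1.5% of all genes were. NCAM1 was lower with both COLCA2 guides, where 2.02% of all genes were, and not with POU2F3 gRNA. The defining markers NEUROD1 and CHGA were low throughout, at 12.9 or less. The 6 neuron markers summed to 5881, 3939 to 4354 and 4156, MAP2 was lower in all 3, and ELAVL4 and NEFL were near 0. The 4 fibroblast markers summed to 1209, 1390 to 1640 and 1255. LUM and PDGFRB were higher in all 3 libraries, where 4.89% of all genes were. The other fibroblast markers, COL1A1 and DCN, met the 2-fold threshold neither with POU2F3 gRNA nor with both COLCA2 guides. The 4 leukocyte markers summed to 161, 258 to 263 and 209, with CD3E listed at 0. CD68, at 72.6 in the control and 139 to 209 in the others, was the leukocyte marker above its control level, while PTPRC and LYZ were below theirs. The 3 endothelial markers summed to 65.9, 41.5 to 52.9 and 47.8. VWF was lower in all 3 libraries, PECAM1 was 22.0 in the control and 23.5 to 25.2 in the others, and CDH5 was listed at 0 in the control and had 0 to 8.23 in the others. The part of these markers in the levels of the sodium channel genes was not tested.

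SCN3A, SCN2A, SCN1A and SCN9A lie in a cluster of 1288480 bp (chr2:165087522-166376001), and the low levels did not extend along it evenly. Of 25 annotated genes in the cluster or within 500 kb, 16 had values and 10 passed the minimum. By its outermost annotated start, SCN2A begins 9.07 kb from the start of SCN3A, on the opposite strand and inside the SCN3A gene body. The RefSeq starts of SCN2A lie farther away, just after chr2:165239413 and chr2:165241059. SCN2A had log2 ratios of -0.30, 0.29 and 0.96, where SCN3A had -3.04, -3.65 and -3.13. SCN7A, at the far end next to SCN9A, had -0.21, -0.08 and -0.14. Between the channel genes, CSRNP3 had -0.09, -0.53 and -0.49, GALNT3 had 0.06, 0.05 and -0.66, and TTC21B had -0.08, -0.05 and 0.27. Beyond SCN3A, COBLL1 had 0.41, 0.68 and 0.51, while GRB14, an adaptor of the insulin receptor, had -0.76, -1.47 and -1.68. Around FGF12, 5 of 14 annotated genes had values and 3 passed, FGF12 included. The others were MB21D2, with 0.45, 0.41 and 0.14, and PLAAT1 (HRASLS in the annotation), with -0.07, -0.48 and -0.07.

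**Figure D4:**
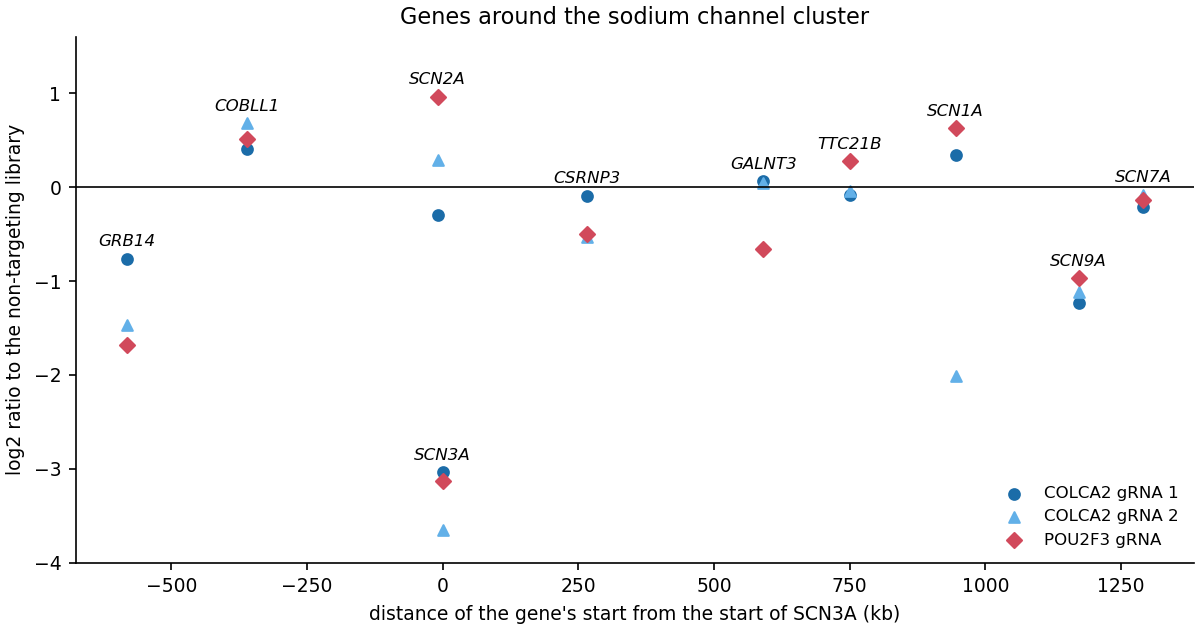
Log2 ratio to the control of the 10 genes past the minimum in and around the sodium channel cluster, against the distance of each gene's start from the start of SCN3A in kb. SCN3A lies between -3.65 and -3.04, while SCN2A, whose outermost annotated start is 9.07 kb away, lies between -0.30 and 0.96.

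The genes whose 3 log2 ratios lay nearest to those of FGF12 and SCN3A were sought over the 12641 genes with 100 or more in their highest library, by Euclidean distance over the 3 ratios, which share 1 control. For SCN3A they were PIK3R5 (distance 0.505), SMIM11B (0.585), TMEM238L (0.632), SLITRK6 (0.820) and MSTN (1.08). PIK3R5, a regulator of a phosphoinositide 3-kinase, had normalized counts of 180 in the control, 30.1 and 14.1 with the COLCA2 guides and 20.1 with POU2F3 gRNA. FGF12 had no such near neighbours, the nearest being MPP7 (2.50), PSD2 (2.65), LRMP (2.78), HEPACAM2 (2.999) and RGS21 (3.29). MPP7 was listed at 0 with COLCA2 gRNA 2 and with POU2F3 gRNA, so its distance rests on the pseudocount. FGF12 itself had 2 and 3 reads in those libraries, so all its distances depend on the pseudocount as well. PSD2 had 1094 in the control, 136 and 85.9 with the COLCA2 guides and 47.8 with POU2F3 gRNA.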

How the data were processed

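Poly(A) RNA libraries were made after TRIzol extraction and DNase treatment with NEBNext kits, per the labels' protocols. Salmon, DESeq2 and hg38 are named, without versions or roles, in the submitters' processing notes, and the use of strand is not given in the sources used here. The authors deposited normalized counts, named so per the file headers, which are a signal on a linear scale with 1 value for each gene. In each library 100% of the deposited values were whole reads, within 1e-06, after multiplication by 1 factor per library (0.965 and 0.850 for COLCA2 gRNA 1 and 2, 1.19 for POU2F3 gRNA, 1.05 for the non-targeting gRNA), and the intervals use these reads. Whole reads may be rounded estimates.

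Of 38145 rows, those of the same symbol were summed, a mean of at least 20 was required, and ratios are log2 with a pseudocount of 1. A 2-fold threshold was counted without a test, since the POU2F3 and non-targeting groups hold 1 library each. For COLCA2 both guides had to pass. Samples of a group are not stated to be separate cultures. Intervals are exact Poisson for levels and Clopper-Pearson for ratios (scipy 1.17.1). As an alternative, edgeR 4.0.16 (quasi-likelihood test, TMM, Benjamini-Hochberg adjusted p of 0.05) was run on the recovered reads of 3 groups. Positions come from GENCODE release 29 and promoters from RefSeq GRCh38.p14. Named genes are the members, the targets, genes of the lists, neighbours within 500 kb and the 5 genes of nearest ratios. The members and lists were chosen with earlier results of these data known. Some genes and sequences are not reported here.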

Additional observations from a re-analysis of the deposited data

Results flagged for a closer look

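SCN8A was lower with both COLCA2 guides and not detectably different from the control with POU2F3 gRNA. Its log2 ratio was 0.044 for the POU2F3 library, against -0.63 for COLCA2 gRNA 1 and -0.53 for COLCA2 gRNA 2. The sign of the POU2F3 value is therefore not established. The difference was not tested, and the counting interval of the POU2F3 value, 91.2% to 117% of the control, includes equal levels.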

How the results depend on the processing

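Over 27 ratios of members, 134 of 135 alternative values with both guides kept stayed within the spread of the guides or the counting interval. The exception was FGF12 with POU2F3 gRNA at a pseudocount of 10, with -4.08. The setting that keeps only the highest row of a symbol could not change any value, because each member has 1 row. The SD of the guides is also wide for FGF14 (3.31), FGF12 (1.86) and SCN1A (1.66). Staying within it says little for those genes. Leaving out a guide gave 36 further values, which a spread of 2 guides cannot judge: FGF12 ranged from -5.92 to -3.29 and SCN1A from -2.01 to 0.34 with COLCA2 gRNA. Of all these values, 9 had another sign. A 1.5-fold threshold put 2 members higher with POU2F3 gRNA, where the 2-fold threshold put 0, and 3 lower, where it put 2.

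The main counts for the POU2F3 library were 455 lower and 1005 higher, and those for both COLCA2 guides 302 and 865. With no minimum on expression the POU2F3 library had 1639 lower and 2551 higher genes, and both COLCA2 guides had 1028 and 1857. With a minimum of 100 there were 233 and 631 for POU2F3 gRNA, and 177 lower for COLCA2. The edgeR test called 1122 genes lower and 1709 higher with COLCA2 gRNA, and for the POU2F3 library 595 and 1263. That test has 1 residual degree of freedom, which the COLCA2 pair supplies, so for POU2F3 it compares libraries. The cause of these differences was not tested, except that another minimum changes the genes counted. Scaling moved the median of all genes by no more than 0.1. No paired analysis was possible because at most 1 replicate number is common to the groups. Depth limits FGF12, FGF14, SCN1A and SCN2A, with few reads in some libraries.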
